A study of Arabidopsis thaliana with 23 samples.

Results

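HAT2 (AT5G47370) is 1 gene of 13350 that a probe set of the array names alone, and it was followed across all 9 groups of the study. It was chosen by name, through the only probe set that names it, and its signal was set against the mock arrays that carry the same replicate numbers. The gene lies on chromosome 5.

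HAT2 encodes a homeodomain-leucine zipper (HD-Zip) protein of class II. Proteins of this class bind DNA as dimers and mostly act as repressors of transcription. HAT2 is known as an early auxin-induced gene of seedlings, and plants that make too much of it have long hypocotyls and altered roots. Auxin acts by bringing Aux/IAA repressors to the TIR1/AFB receptors, which leads to their breakdown and frees auxin response factors to switch genes on.

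Whole Arabidopsis thaliana seedlings of ecotype Col-0 were measured on 23 arrays with 1 colour, each holding 1 biotin-labelled RNA sample. All seedlings, mock included, spent 6 or 7 days on agar and 1 day in shaken liquid medium before a treatment of 3 h. Arrays with replicate numbers 1 to 3 held 1 µM of the natural auxin IAA (indole-3-acetic acid), 10 µM PEO-IAA with 1 µM IAA, 10 µM PEO-IAA, 30 µM kynurenine, and mock, with 3 arrays in each of these 5 groups. Arrays numbered 4 and 5 held 100 nM IAA, 10 µM PPBo with 1 µM IAA, 10 µM PPBo, and mock, with 2 arrays in each of these 4 groups. PEO-IAA is an IAA derivative that occupies the TIR1/AFB receptors without activating them. Kynurenine and PPBo both lower the making of IAA, the first at the TAA1 step to indole-3-pyruvate and the second at the YUCCA step from there to IAA. By the title, the series sought auxin-responsive genes with the help of such inhibitors. The labels do not say whether replicates came from separate cultures, so the p-values cover the spread among these samples alone, and that spread may be technical. In whole seedlings, fewer cells that make a transcript and less transcript per cell cannot be told apart.

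All arrays had been scaled to a common level, with 2% trimmed means between 500.04 and 500.05. The third 1 µM IAA array stood apart, with a median correlation to the others of 0.880 against 0.949 to 0.969, and a 3′ to 5′ GAPDH signal ratio of 24.4 against 1.19 to 2.05. The lowest group mean of LHCB4.1, a light-harvesting protein of green tissue and the 1 shoot marker of 7 that could be named, was 9906, and that of PYK10, a root glucosidase, was 13792. EXPA7, a root hair expansin and the other of 2 root markers of 7 that could be named, had group means of 27.9 to 186, the lowest with PEO-IAA, where all 3 arrays were under 61.8, the signal above which probe sets were tested by their mean. The reference genes TIP41, SAND and UBC21 did not pass the test in any comparison.

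HAT2 rose with 1 µM IAA, alone, beside PEO-IAA and beside PPBo, and fell with PPBo alone. Its lowest mean signal was 117 ± 5.26 with PPBo (SD, n = 2). Above it came kynurenine at 155 ± 49.6 (n = 3), PEO-IAA at 169 ± 27.1 (n = 3), the mock of replicates 1 to 3 at 260.0 ± 29.0 (n = 3), and the mock of replicates 4 and 5 at 371 ± 6.44 (n = 2). Next were PPBo plus IAA at 488 ± 52.5 (n = 2), 100 nM IAA at 734 ± 15.7 (n = 2) and PEO-IAA plus IAA at 879 ± 33.9 (n = 3). The highest mean was 1402 ± 152 with 1 µM IAA (n = 3). PPBo, kynurenine and PEO-IAA were neighbours whose single arrays overlapped, and every other pair of neighbours in this order was separate. The signal is an intensity on a linear scale and holds the order of HAT2 across arrays, not its amount relative to other genes.

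**Figure D1:**
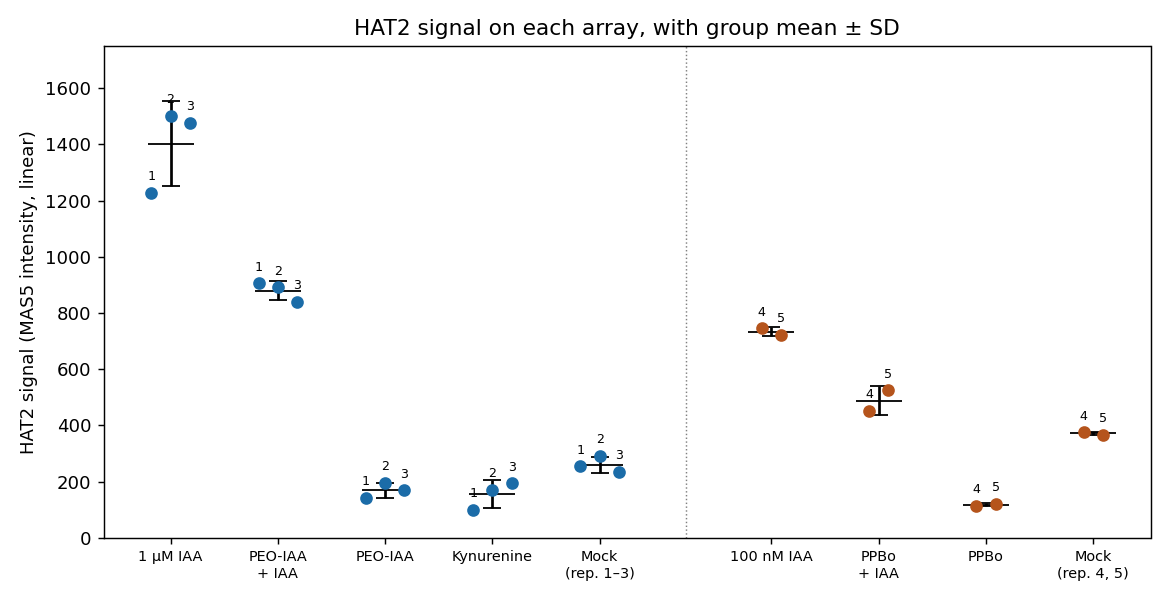
Signal of HAT2 (linear MAS5 intensity, vertical axis) on each of the 23 arrays, by group, with replicate numbers beside the points and bars for the group mean ± SD. The 1 µM IAA arrays sit between 1227 and 1502, and the PPBo arrays, at 113 and 121, lie below both mock arrays of their set.

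HAT2 stood at 376 and 367 on mock arrays 4 and 5, against 255, 291 and 234 on mock arrays 1 to 3. The groups did not overlap. The difference was 0.51 ± 0.20 (SE) on the log2 scale and did not pass the test (limma adjusted p = 0.141), while 5.34% of all probe sets were called between these mock groups. These were 850 calls, against 278 without mock array 1, 560 without mock array 2 and 667 without mock array 3. There were 2392 without the third 1 µM IAA array. The count was lower still without mock array 4 or 5, where 1 array was left in that mock. LHCB4.1 was also higher in the mock of replicates 4 and 5, by 0.65 ± 0.16 (limma adjusted p = 0.0214). The part of tissue make-up in the HAT2 levels of the 2 sets was not tested. Each treatment was set against its own mock, as stated at the start.

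Changes are differences of log2(signal + 7.56), with the standard error of 1 limma fit over all arrays, and a call is a Benjamini-Hochberg adjusted p below 0.05 over 15922 tested probe sets. Adjusted p-values are from this fit, except where a sentence names another fit or an alternative setting. An exact permutation test of HAT2 alone could not go below 0.1 with 3 arrays against 3, or below 0.333 with 2 against 2.

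The first comparison asked what added auxin does. HAT2 stood at 1227, 1502 and 1476 with 1 µM IAA, against 255, 291 and 234 in mock. Every treated array lay above every mock array, and the closest treated and mock arrays were 2.05 apart on the log2 scale. HAT2 rose by 2.40 ± 0.18, or 5.27-fold (95% confidence interval 4.06 to 6.83; adjusted p = 1.85e-07). In this comparison 2.24% of probe sets were called in either direction, and HAT2 ranked 18 of 15922 by the size of its increase and 4 by p. The third IAA array, the one with the aberrant GAPDH ratio, had a HAT2 signal between those of the other two.

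At 100 nM IAA, the lower dose, HAT2 stood at 745 and 723, against 376 and 367 in mock. The groups were separate and the 2 arrays of each were close together. The change was 0.97 ± 0.22, or 1.96-fold (95% confidence interval 1.42 to 2.69), and did not pass the test (adjusted p = 0.0734) where 0.358% of probe sets were called in either direction. It ranked 62 by size. In a fit with the arrays of replicates 4 and 5 alone, where the spread between arrays was smaller, the same change was called (adjusted p = 0.000939).

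The response to 1 µM IAA, 2.40, was larger than the response to 100 nM, 0.97, by 1.43 ± 0.28 (95% confidence interval 0.84 to 2.02). This difference did not pass (limma adjusted p = 0.196, with 0% of probe sets called), although HAT2 ranked 6 by p. Only 454 probe sets, or 2.85%, had an unadjusted limma p below 0.05, a smaller share than that threshold itself. The doses were tested in different replicate sets, so dose and set cannot be told apart.

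The inhibitors asked how much HAT2 transcript depends on the seedlings' own auxin. HAT2 fell with PPBo. It stood at 113 and 121 with PPBo, against 376 and 367 in mock, so that 31.6% of the mock mean was left. No treated array came near a mock array. HAT2 fell by 1.60 on the log2 scale (SE 0.22), 3.04-fold lower than mock (adjusted p = 0.00132), where 0.364% of probe sets were called in either direction. It ranked 26 by the size of the decrease, and 6 among the 8712 tested probe sets that name 1 gene.

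Kynurenine left HAT2 at 99.03, 171 and 194, against 255, 291 and 234 in mock. All treated arrays were lower than all mock arrays, but the spread was the widest of any group, with a coefficient of variation of 32.1%. The change was -0.77 ± 0.18 (95% confidence interval -1.14 to -0.39) and did not pass (adjusted p = 0.716). Only 0.0126% of probe sets were called with kynurenine, and HAT2 ranked 39 by size and 9 by p among 15922. Against the mock array of the same number, the log2 differences were -1.30, -0.74 and -0.26. Without the first kynurenine array the change was -0.49.

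With PEO-IAA, the receptor antagonist, HAT2 stood at 142, 196 and 169, against 255, 291 and 234 in mock. The arrays of the groups were separate, by 0.24 on the log2 scale at the closest. The change was -0.60 ± 0.18 (95% confidence interval -0.98 to -0.23) and did not pass (adjusted p = 0.242), with 0.659% of probe sets called in either direction. It was called in 3 of 20 alternatives. EXPA7 fell by 2.11 on the log2 scale with PEO-IAA (adjusted p = 0.0088), with mean signals of 27.9 ± 20.7 in PEO-IAA and 126 ± 27.2 in mock (SD, n = 3 each), while PYK10 and LHCB4.1 were at 0.00 ± 0.13 and 0.11 ± 0.14. The part of these tissues in the HAT2 value was not tested.

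The single-array changes of kynurenine (-1.32 to -0.40) and PEO-IAA (-0.83 to -0.39) overlapped, and those of PPBo (-1.65 and -1.56) lay below both. The doses were 30 µM for kynurenine and 10 µM for the others, and PPBo was run in the other replicate set. These values therefore stand side by side without a test.

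**Figure D2:**
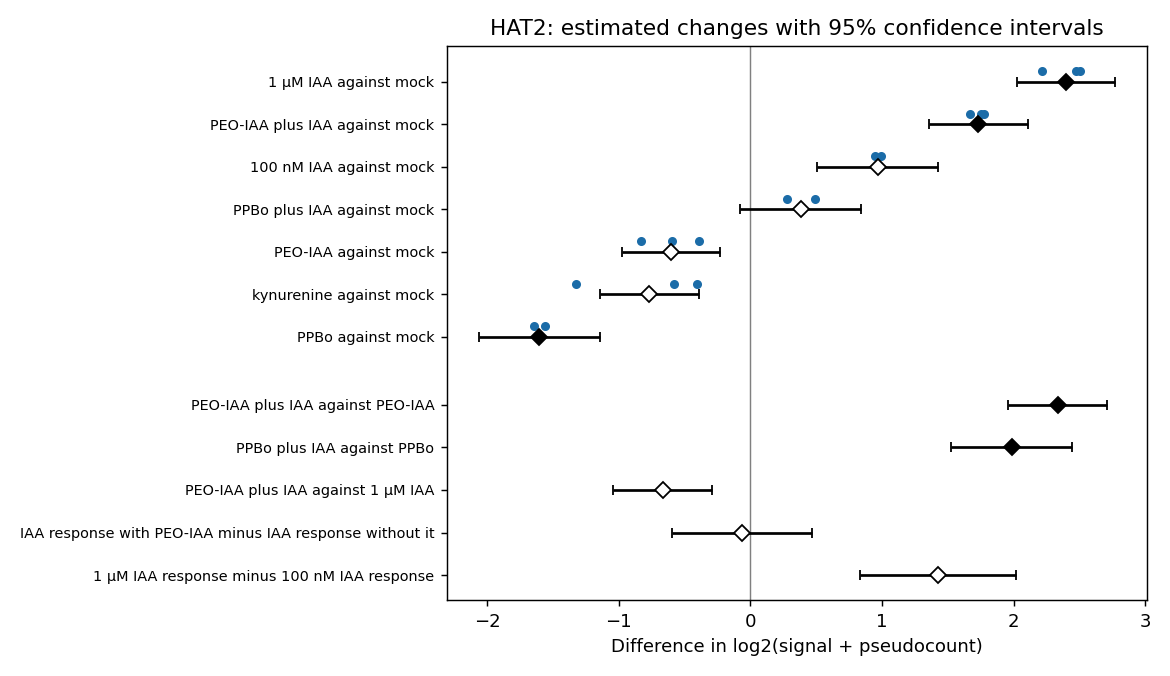
Change of HAT2 as a difference in log2(signal + pseudocount) (horizontal axis), for 7 treatments against their own mock (top) and 5 further comparisons (bottom). Diamonds are limma estimates with 95% confidence intervals, filled where the adjusted p is below 0.05, and blue points are single arrays minus the mean of their mock; 1 µM IAA is highest at 2.40 and PPBo lowest at -1.60.

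Adding IAA beside an inhibitor asked whether HAT2 could still respond. On PEO-IAA plus IAA arrays HAT2 stood at 905, 891 and 840.5, against 142, 196 and 169 with PEO-IAA alone. The lowest array with IAA was 2.06 above the highest array without it on the log2 scale. HAT2 rose by 2.34 ± 0.18, or 5.05-fold (95% confidence interval 3.89 to 6.55; adjusted p = 2.31e-07), where 1.35% of probe sets were called in either direction, and it ranked 22 by size. EXPA7 was also higher in this comparison, by 1.76 ± 0.39 (adjusted p = 0.0242), and its part in the HAT2 value was not tested. Set against mock, the same arrays were higher by 1.73 ± 0.18 (adjusted p = 2.6e-05; 1.14% of probe sets called).

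The rise beside PEO-IAA, 2.34, differed from the rise with IAA alone, 2.40, by -0.06 ± 0.25 (adjusted p = 0.949). The 95% confidence interval of this difference ran from -0.59 to 0.47, so that a change of the IAA response by up to 0.59 downward or 0.47 upward is within the error. The sign of the estimate turned in 4 of 25 alternatives. Here 0.107% of probe sets were called in either direction. PEO-IAA plus IAA left HAT2 at a lower level than 1 µM IAA alone, with 905, 891 and 840.5 against 1227, 1502 and 1476. The arrays did not overlap, and the difference of -0.66 ± 0.18 (95% confidence interval -1.04 to -0.29) did not pass (adjusted p = 0.165; 0.371% of probe sets called). The estimated shift with PEO-IAA was thus -0.66 in the presence of IAA and -0.60 in its absence, neither of them called.

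With PPBo plus IAA, HAT2 stood at 451 and 525, against 113 and 121 with PPBo alone. HAT2 rose by 1.99 ± 0.22, or 3.96-fold (95% confidence interval 2.88 to 5.45; adjusted p = 8.78e-05), where 0.653% of probe sets were called in either direction, and it ranked 27 by size. The rise beside PPBo and the rise beside PEO-IAA differed by -0.35 ± 0.28 (95% confidence interval -0.94 to 0.24; adjusted p = 1), with 0.0126% of probe sets called in either direction.

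Against mock, PPBo plus IAA was at 451 and 525, against 376 and 367 in mock. Both treated arrays were above both mock arrays, but the difference of 0.38 ± 0.22 had a 95% confidence interval that reached from -0.08 to 0.84 and did not pass (adjusted p = 1; 0.98% of probe sets called). This group is labelled as holding 1 µM IAA, and its dose rests on that label alone. Its HAT2 signals of 451 and 525 were nevertheless below the 745 and 723 of the 100 nM IAA arrays in the same set, a difference of -0.59 ± 0.22 that did not pass (adjusted p = 0.893; 0.182% of probe sets called in either direction).

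The response to PPBo plus IAA, 0.38, was smaller than the response to 1 µM IAA alone, 2.40, each against its own mock. The difference was -2.01 ± 0.28 (95% confidence interval -2.61 to -1.42; adjusted p = 0.00423), where 0.113% of probe sets were called in either direction. PPBo, the replicate set and any departure from the labelled IAA dose cannot be told apart in it. This comparison and the one with 100 nM IAA were added after the values were seen. IAA29, an Aux/IAA repressor, was the other list member called, at -2.72 ± 0.39. Its mean signals in the mocks, 49.5 and 45.9, were below the filter of 61.8. It was tested because of its IAA arrays, at a mean of 527 with 1 µM IAA, so its call is a description and no support for the HAT2 difference. GH3.3, at -1.26 ± 0.67, and LBD29, at -0.82 ± 0.73, did not pass.

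**Figure D3:**
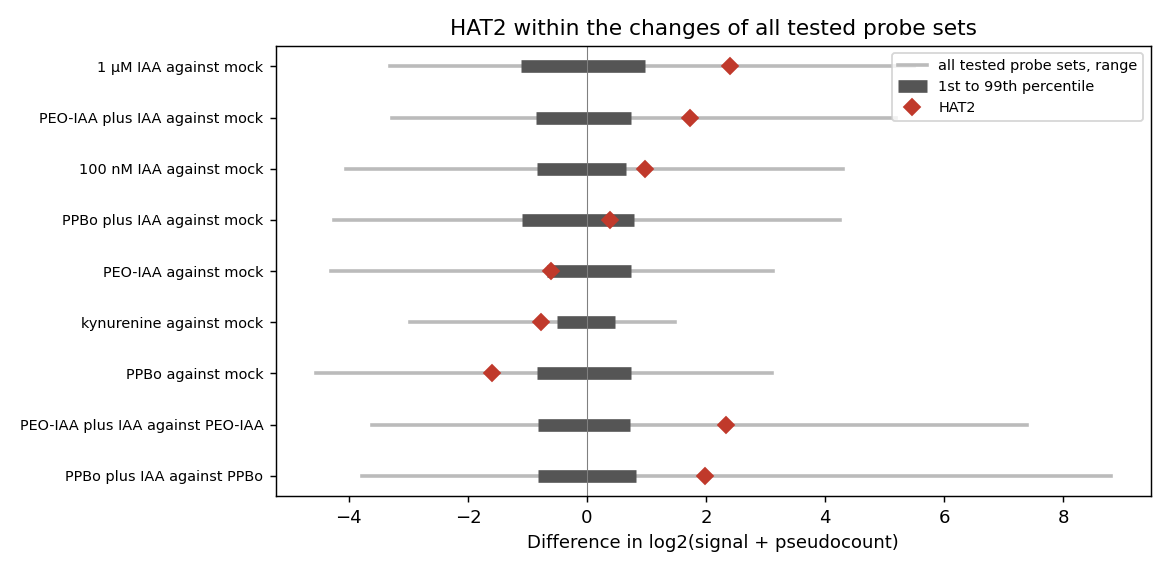
Change of HAT2 (red diamonds) in 9 comparisons, beside the range (grey lines) and the 1st to 99th percentile (dark bars) of the changes of all 15922 tested probe sets; the horizontal axis is the difference in log2(signal + pseudocount). HAT2 lies beyond the 99th percentile in the 5 comparisons where IAA is added and the change is 0.97 or more, beyond the 1st percentile with kynurenine and PPBo, and within the bars with PEO-IAA alone and with PPBo plus IAA against mock.

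HAT2 was the only one of 10 listed HD-Zip II genes whose probe set could be named here, so the class could not be described beyond it. Of 5 HD-Zip III genes PHV, a leaf polarity factor, was tested, and it did not pass in any comparison. Its mean signal was 642 ± 296 with 1 µM IAA and 453 ± 57.3 in mock (SD, n = 3 each), and the highest of the IAA arrays, at 981, was the third, the one that stood apart. Of 17 HD-Zip I genes, and of 10 auxin receptors and response factors, none could be named. Of 11 genes of auxin synthesis, 1 was tested, YUC2, which makes IAA, and it did not pass in any comparison.

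Other auxin-regulated genes were taken from the Aux/IAA family (3 tested of 29 listed), the GH3 family (5 of 8) and LBD genes listed as auxin targets (2 of 5). These lists were chosen with earlier results of these data known, so the counts are a description. With 1 µM IAA, 2 of 3 Aux/IAA genes, 3 of 5 GH3 genes and both LBD genes rose and none fell, where 2.24% of all probe sets were called. The median changes were 1.44 for Aux/IAA, 2.56 for GH3 and 2.78 for LBD genes, against -0.000116 over all tested probe sets. In the mock of replicates 1 to 3, IAA29, IAA30, GH3.1 and LBD29 had mean signals of 49.5, 54.4, 25.6 and 32.4. These lay below the filter of 61.8, and the genes were tested because their means over all arrays, IAA arrays included, exceeded it. The counts and medians therefore depend on the response and are no test of these families. GH3 enzymes join IAA to amino acids, and the 3 that rose were GH3.3 (5.50 ± 0.42), GH3.1 (2.73 ± 0.40) and GH3.5 (2.56 ± 0.27). The Aux/IAA genes that rose were IAA29 (3.25 ± 0.25) and IAA30 (1.44 ± 0.21), the second not called with the groups of the contrast alone (0.114). LBD29, a factor of lateral root formation, rose by 4.20 ± 0.46. The call of LBD16 (1.35 ± 0.34, adjusted p = 0.0368) was lost whichever array of the comparison was left out, at adjusted p-values of 0.0502 to 0.137, and in 4 other alternatives (0.0504 to 0.0972). With 100 nM IAA, GH3.3 (4.31 ± 0.52), GH3.5 (2.34 ± 0.34) and LBD29 (3.46 ± 0.57) were called. The LBD29 call was lost without any 1 of the 4 arrays (adjusted p = 0.0615 to 0.108) and with a pseudocount of 1.89 (0.0563), and that of GH3.5 without mock array 5 (0.0506). IAA29 was at 1.12 ± 0.30 there and was not called.

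With kynurenine, GH3.3 alone of these genes passed, at -2.97 ± 0.42 (adjusted p = 0.00895), and the call was lost without mock array 2 (0.0826) or 3 (0.134), with the replicate set alone (0.163) and with the groups of the contrast alone (1). The GH3.3 signals with kynurenine were 7.20, 58.6 and 54.7, the first below the pseudocount of 7.56, so the size of this change is not fixed. Leaving out single arrays moved it between -3.34 and -2.26. With PEO-IAA, GH3.3 (-2.19 ± 0.42) and GH3.5 (-1.50 ± 0.27) passed. The GH3.3 call was lost without mock array 2 (0.065) or 3 (0.0956) or PEO-IAA array 1 (0.0946) or 2 (0.0551), with the replicate set alone (0.0814) and with the groups of the contrast alone (0.0763). The GH3.5 call was lost without PEO-IAA array 2 (0.0626) and with the replicate set alone (0.0617).

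With PPBo, GH3.3 was at 10.9 on both arrays, against 385 and 474 in mock. It was called as lower (adjusted p = 0.000132), but at signals this near the pseudocount the size of the change is not fixed, with estimates of -5.07 to -3.47 with pseudocounts of 1.89 and 30.2. IAA29 was lower by 1.48 ± 0.30 (adjusted p = 0.0345), a call lost without mock array 4 (0.299), mock array 5 (0.308) or the second PPBo array (0.444), with no filter (0.0516) and with the groups of the contrast alone (0.156). With a pseudocount of 30.2 it was -0.85 and not called (0.115), its PPBo signals being 16.9 and 7.44. The tested members of the LBD list and the other 4 GH3 genes did not pass. HAT2 and GH3.3 both kept their PPBo calls under all 18 alternatives that were run for each.

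**Figure D4:**
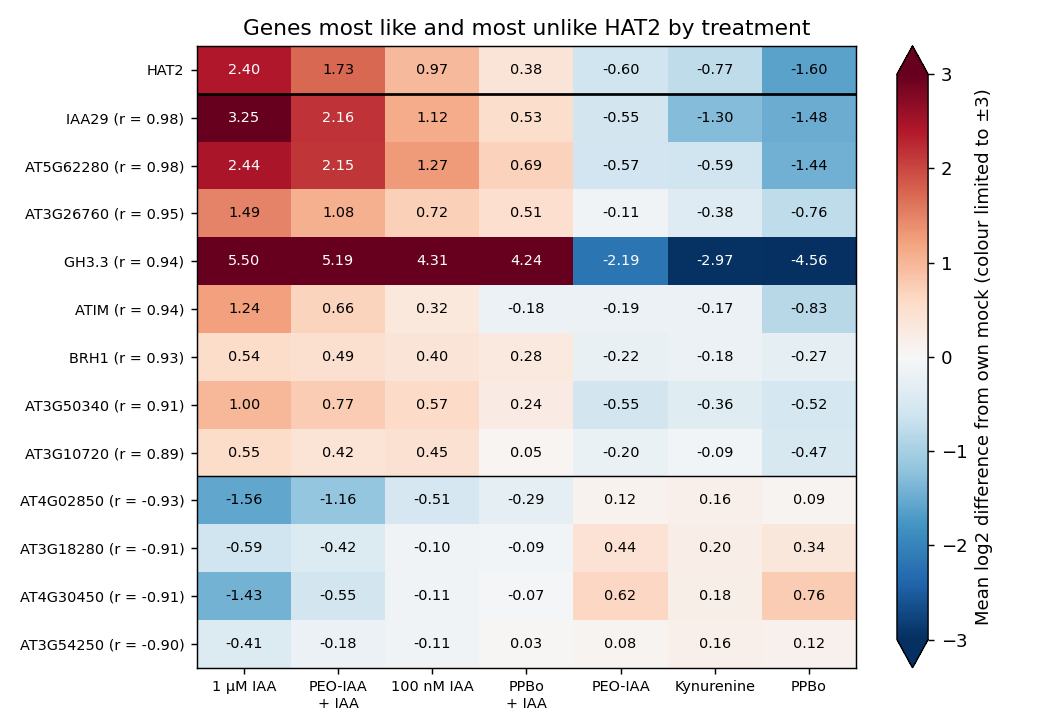
Mean log2 difference from the own mock in 7 treatments (columns) for HAT2, the 8 genes whose values over 23 arrays correlate best with it and the 4 that correlate least (rows, with Pearson's r); numbers in the cells are the differences, and the colour scale ends at ±3. IAA29 and AT5G62280 follow HAT2 most closely, and the 4 lowest rows have negative values with 1 µM IAA, where HAT2 is at 2.40.

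Likeness to HAT2 was measured as Pearson's correlation over the 23 arrays, each value set against the mean of its own mock, among 8712 tested probe sets that name 1 gene. The arrays share treatments, so these correlations describe a common pattern and carry no p. The genes were chosen for likeness on the same arrays, so their levels are given as a description, with no test. IAA29 came first at 0.976, followed by AT5G62280 at 0.975, AT3G26760 at 0.952, GH3.3 at 0.940, ATIM (AT5G52910) at 0.940, BRH1 at 0.927, AT3G50340 at 0.911 and AT3G10720 at 0.888. Only 7 probe sets were above 0.9, where the median of all was 0.02. Without the third 1 µM IAA array 7 of these 8 were again among the first 8, and with log2 values not set against a mock 5 were.

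In the size of its changes AT5G62280 was closest to HAT2. The distance over the 7 treatment means was 0.647 on the log2 scale, against a median of 3.67 over all, and it was the only one below 1. Its signals were 1385, 1735 and 751 with 1 µM IAA, against 225, 233 and 198 in mock, and 192 and 131 with PPBo, against 441 and 448 in mock. Its lowest 1 µM IAA signal was the one on the third array. IAA29 was next at 1.11, then AT3G26760 at 1.56, EXPA8 at 1.71 and LBD16 at 1.81.

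IAA29 stood at 476, 519 and 586 with 1 µM IAA, against 39.5, 63.4 and 45.4 in mock. With PPBo plus IAA it stood at 70.8 and 68.0, against 46.4 and 45.5 in mock. As with HAT2, these values were below the 113 and 104 of 100 nM IAA. GH3.3 had the same order of treatments as HAT2 but far larger changes, at a distance of 7.98, and with PPBo plus IAA it stayed high at 9332 and 7248, against 9197 and 8028 with 100 nM IAA.

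The 4 genes with the lowest correlations were AT4G02850 at -0.926, AT3G18280 at -0.915, AT4G30450 at -0.914 and AT3G54250 at -0.901. AT4G30450 stood at 271, 295 and 367 with 1 µM IAA, against 854, 798 and 877 in mock. With PEO-IAA it stood at 1387, 1338 and 1188, above all mock arrays of its set.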

How the data were processed

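The deposited values are MAS5 signals, a linear intensity per probe set, per the submitters' processing notes, which name no version. Array preparation beyond this is not given in the sources used here, and the labels and the design text name different RNA extraction methods. Detection calls were not used here, and the number of arrays limits the precision.

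Signals were taken to log2(signal + 7.56), the pseudocount being the 10th percentile of all values. For dim probe sets this makes fold changes too small. Of 22810 probe sets, 64 were controls, and 15922 were tested, those whose mean signal exceeded 61.8, the 30th percentile. A linear model with 9 group means was fitted to the 23 arrays in limma 3.58.1 under R 4.3.3 (lmFit, then eBayes with its trend option), which left 14 residual degrees of freedom. Each of the 16 contrasts had its own Benjamini-Hochberg adjustment. The scripts were tested on simulated data.

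Of all probe sets, 13513 named 1 gene, 503 several and 8794 none here. Of the named, 13436 matched the TAIR10.1 gene table, used for names only.

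Genes named are HAT2, up to 4 members of each list with the smallest p, the 8 genes of highest and 4 of lowest correlation with HAT2, and the 5 at the smallest distance. EXPA7, LHCB4.1 and PYK10 are tissue markers. Members and lists were chosen with earlier results of these data known. Alternatives covered the pseudocount, the filter, array weights, a replicate block, the arrays in the fit, the mock and each array left out.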

Additional observations from a re-analysis of the deposited data

Results flagged for a closer look

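The response of HAT2 to PPBo plus IAA was smaller than its response to 1 µM IAA, by -2.01 ± 0.28 on the log2 scale (limma adjusted p = 0.00423), which is a difference between effects in the 2 replicate sets at the same labelled IAA dose. Signals were 451 and 525 with PPBo plus IAA, against 376 and 367 in its mock, and 1227, 1502 and 1476 with 1 µM IAA, against 255, 291 and 234 in its mock. The comparison was chosen after the values were seen. The mock of replicates 4 and 5 was higher than that of replicates 1 to 3 by 0.51 ± 0.20 (SE), and this gap is part of the difference. Because PPBo plus IAA was run only in replicates 4 and 5, and 1 µM IAA alone only in replicates 1 to 3, PPBo, the replicate set and any departure from the labelled IAA dose cannot be told apart. The call held in all 22 alternatives, with differences of -2.12 to -1.51.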

How the results depend on the processing

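Of 312 HAT2 values under alternatives, 290 kept their direction and side of the threshold, 18 became called and 4 changed sign. No HAT2 call was lost. With array quality weights, changes became called for PEO-IAA (-0.59), 100 nM IAA (0.97), the difference between the IAA doses (1.29), the mock sets (0.47) and PPBo plus IAA against 100 nM IAA (-0.59), and the difference between IAA responses with and without PEO-IAA turned to 0.0285. With mock replicates 1 to 5 as 1 control, calls were gained for PEO-IAA (-0.81), 100 nM IAA (1.27) and the dose difference (0.92), and the PEO-IAA difference turned to 0.14. Leaving out single arrays moved that difference between -0.1756 and 0.0469. The 100 nM IAA change was also called at 4 times the pseudocount (0.93), and, at 0.97, with the replicate set or the groups of the contrast alone. PPBo plus IAA against 100 nM IAA (-0.59) was called with those same restrictions. The cause was not tested.

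Same-numbered arrays tended to deviate together in replicates 1 to 3, where 12 of 15 arrays correlated best with their own number. There, 18 of 30 same-numbered pairs were over a correlation of 0.1 (median 0.389). Of differently numbered pairs, 7 of 60 were (median -0.0565). In replicates 4 and 5 the 12 same-numbered pairs were low, at 0.0294 to 0.167, with 4 over 0.1. With 2 arrays per group, the deviations from the group mean mirror each other. Each value therefore comes once from array 4 and again from array 5, and the 12 pairs are not separate evidence. The differently numbered pairs there hold the same values with the sign turned, at -0.167 to -0.0294. The main fit left this pairing out. With the replicate block the 100 nM IAA change (0.97) was called (adjusted p = 0.0308 by limma). With the replicate block and without the third 1 µM IAA array, calls were gained for PEO-IAA (-0.60), 100 nM IAA (0.97), the dose difference (1.41) and the mock sets (0.51).

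Leaving out 1 array gave ranges of 2.33 to 2.49 for 1 µM IAA, -0.95 to -0.49 for kynurenine and -1.65 to -1.56 for PPBo. A lone array of a 2-array group was assumed to vary like the other groups. Counts of called probe sets moved by over 1.5 times in 145 of 312 cases. The ranges were 69 to 1775 for 1 µM IAA (356 in the main setting), 0 to 10 for kynurenine (2), 55 to 320 for PEO-IAA (105), 12 to 494 for 100 nM IAA (57) and 17 to 373 for PPBo (58). They were 51 to 628 for PEO-IAA plus IAA against mock (181), 97 to 552 against PEO-IAA (215), 63 to 655 for PPBo plus IAA against mock (156) and 50 to 404 against PPBo (104). Between the mock sets the range was 57 to 4548 (850).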
